A study of Homo sapiens with 2 samples.

Results

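The hairpins of miR-494, miR-1193, miR-543 and miR-495 stand next to each other in a miR cluster of the chromosome region 14q32.31. All rows of the deposited table that name one of these 4 hairpins were taken, whatever the arm, the asterisk or the spelling. This gave 6 of the 934 names of the table, namely miR-494, mir-494*, miR-1193, miR-543, miR-495 and mir-495*. Small RNA had been sequenced from K562/ADM, an adriamycin-resistant variant of the K562 line that was raised by exposure to increasing doses of adriamycin (ADM, the anthracycline doxorubicin) and was kept in 1000 ng/mL of the drug. The reference was its parent K562, a human chronic myelogenous leukemia line cultured without ADM. There was 1 library per line, so the values below compare these 2 libraries and not the 2 conditions, and no p-value was computed. The sources used here do not say whether K562/ADM is 1 clone. In material of this kind, fewer cells that make a miR and less of it per cell cannot be told apart.

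A miR is cut from a hairpin in a longer primary transcript, first by Drosha in the nucleus and then by Dicer in the cytoplasm, and 1 arm of the hairpin is usually kept as the guide. The guide pairs with 3'-UTRs mainly through its seed, bases 2 to 8 from its 5' end. The 14q32 miRs lie in an imprinted domain and are expressed from the maternal chromosome, together with long noncoding RNAs such as MEG3 and MEG8. Of the 4 hairpins here, miR-495 was chosen in the study as a candidate regulator of MDR1, the gene of the drug efflux pump P-gp, and miR-494 was measured beside it by PCR. The study reported both miRs as lower in K562/ADM by stem-loop PCR over independent experiments. It also reported miR-495 as lower in K562/VBL, a variant raised with vinblastine.

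The mature sequences of all 4 hairpins were found in the RefSeq miRNA table (GRCh38.p14). They are shown so that the seeds can be compared. Capitals mark the seed.
miR-494-3p: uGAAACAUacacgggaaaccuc
miR-494-5p: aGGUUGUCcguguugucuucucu
miR-1193: gGGAUGGUagaccggugacgugc
miR-543: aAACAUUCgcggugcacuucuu
miR-495-3p: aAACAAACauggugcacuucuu
miR-495-5p: gAAGUUGCccauguuauuuucg

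No seed was shared within the set. The seeds of miR-494-3p, miR-1193 and miR-543 were each shared with 0 other names among 2370 human mature names. That of miR-495-3p was shared with miR-5688, which the deposited table does not list. The seed of miR-494-5p was shared with miR-410-5p and with miR-323b-5p, of which miR-323b-5p had 0 reads in K562/ADM and 3 reads in K562.

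MiR-495-3p and miR-543 are close in sequence although their seeds differ. They are given again with the bases of their common 3' end in capitals.
miR-495: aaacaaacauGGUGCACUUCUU
miR-543: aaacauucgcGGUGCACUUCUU

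Both have 22 bases, of which 18 are the same (81.8%). The last 12 bases were found at the end of no other human mature miR in the table. With positions counted from the 5' end, the changes that turn miR-495 into miR-543 are A6U, A7U, A9G and U10C, so 2 of the 4 fall in the seed. Each was the nearest mature sequence of the other. The nearest mature sequence of miR-494-3p was miR-382-3p (65.2% identity), also of 14q32, and that of miR-1193 was miR-4758-5p of chromosome 20 (68% identity).

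The hairpins carry these sequences on different arms. Capitals mark the mature miRs in the RefSeq hairpins.
MIR494: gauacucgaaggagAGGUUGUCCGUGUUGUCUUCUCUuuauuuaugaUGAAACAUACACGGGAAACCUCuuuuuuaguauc
MIR1193: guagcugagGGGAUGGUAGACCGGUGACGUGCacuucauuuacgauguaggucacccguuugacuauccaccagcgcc
MIR543: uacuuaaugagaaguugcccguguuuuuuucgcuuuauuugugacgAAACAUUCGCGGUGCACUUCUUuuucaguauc
MIR495: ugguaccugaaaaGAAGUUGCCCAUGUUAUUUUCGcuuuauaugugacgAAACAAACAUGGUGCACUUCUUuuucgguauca

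MiR-494-3p (hairpin bases 48 to 69), miR-543 (bases 47 to 68) and miR-495-3p (bases 50 to 71) come from the 3' arm, whereas miR-1193 (bases 10 to 32) comes from the 5' arm. The hairpins of miR-543 and miR-495 were 80.5% identical over their whole length, those of miR-494 and miR-543 76.5%, and those of miR-494 and miR-495 71.1%. MIR1193 stood apart, with 48.2% to 57.1% identity to the other three. Among all 780 pairs of 40 hairpins of the cluster the median identity was 53.2%. MIR1193 was also the member whose nearest human hairpin, MIR6824 on chromosome 3 (60% identity), lay outside the cluster. MIR494 was nearest to MIR487A (78%) of the same cluster.

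On GRCh37 all 4 hairpins lie on the plus strand of chromosome 14, in introns of the noncoding gene MEG8 (chr14:101361107-101505196). MIR494 is at chr14:101495971-101496051, MIR1193 at chr14:101496389-101496466, MIR543 at chr14:101498324-101498401 and MIR495 at chr14:101500092-101500173. The 81, 78, 78 and 82 bases of the RefSeq hairpins, in this order, were the same as the genome sequence at these positions. The whole set spans 4203 bases. MIR494 and MIR1193 are 337 bases apart, MIR1193 and MIR543 1857 bases, and MIR543 and MIR495 1690 bases. The set starts 2450 bases after MIR329-2, its upstream neighbour, and ends 5843 bases before MIR376C, its downstream neighbour.

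The libraries held 6895193 miR reads in K562/ADM and 7677738 in K562, on 815 and 828 of the 934 names. The deposited values are reads scaled with DESeq, whose size factors come from the median of ratios between libraries. They gave back whole reads for 100% of the values, within a relative tolerance of 0.001 that large counts meet in any case. A name was called where K562/ADM and K562 differed at least 2-fold and the exact 95% interval of the ratio, from the binomial split of the reads, did not hold 1. Such intervals cover counting error only. Reads of miRs typical of blood and erythroid cells were present in both libraries for 5 of 5 names, summing to 8.61% of the reads in K562/ADM and 6.04% in K562. In this list miR-142 had more reads in K562/ADM (517063, against 362072 in K562), whereas miR-451 (19739 in K562/ADM, against 30473 in K562), miR-486 (11052, against 16770), miR-223 (2987, against 4756) and miR-144 (43024, against 49826) had fewer, before scaling. After scaling, the ratio of K562/ADM over K562 was 1.37 for the name miR-144 and 1.02 for miR-144*, so these names were not lower. Of 12 miRs typical of other cell types 10 had reads in K562/ADM and 9 in K562 (0.416% and 0.183% of the reads). Most of these reads were of miR-9 (20323 in K562/ADM, against 9820 in K562), miR-145 (6217, against 3050) and miR-143 (1279, against 206), and the muscle miR-1 had 22 reads in K562/ADM and 10 in K562. MiR-141 (746 in K562/ADM, against 897 in K562) and miR-205 (0, against 1) had fewer reads before scaling. After scaling, the name miR-141 had a ratio of 1.02. MiR-200c had 63 reads in K562/ADM and 58 in K562. MiR-133b was at 0 in both libraries, and miR-206 had 1 read in K562/ADM and 0 in K562. The part of these differences in the results below was not tested.

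All 6 names had fewer reads in K562/ADM than in K562, and 5 of them were called lower and 0 higher. Of all 934 names, 15.6% were called lower. MiR-494 had 1 read in K562/ADM and 394 in K562, that is 0.145 RPM in K562/ADM and 51.3 RPM in K562 (RPM, reads scaled to the total of the library). MiR-495 had 3 reads in K562/ADM and 295 in K562, or 0.435 RPM in K562/ADM and 38.4 RPM in K562. The other 4 names were not seen in K562/ADM at all.

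**Figure D1:**
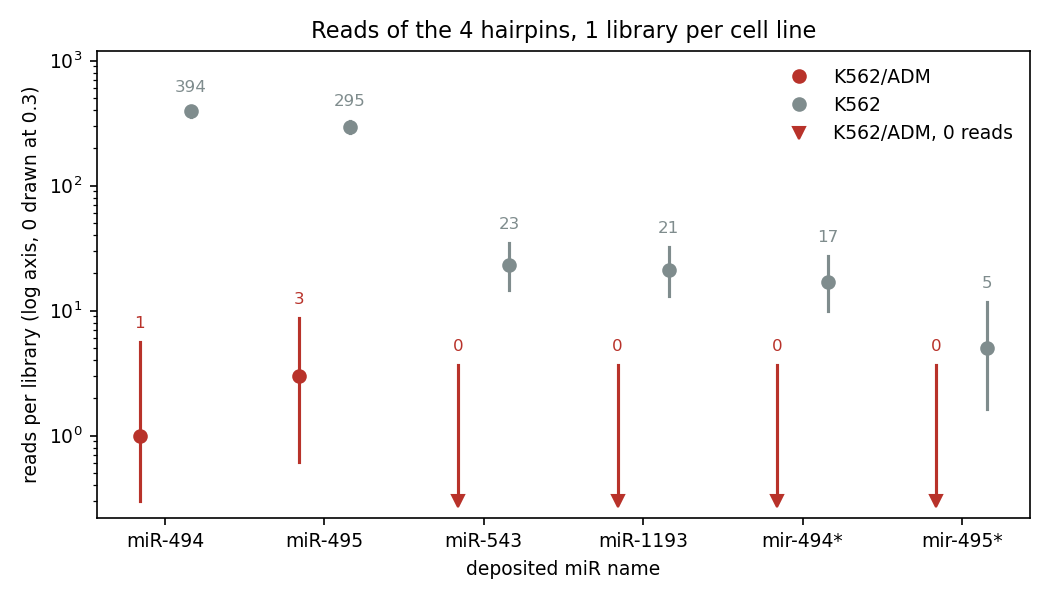
Reads of each of the 6 names (log axis) in the K562/ADM library (red, left) and the K562 library (grey, right), with exact 95% Poisson intervals as lines and 0 reads drawn as triangles at 0.3. The K562/ADM points lie at 0 to 3 reads and the K562 points at 5 to 394 reads.

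MiR-494 was the most abundant of the set in K562, in the 187th place of the whole table, with 80% of the names below it. Its ratio corresponds to a level 322-fold lower in K562/ADM (95% interval 57.4 to 1.274e+04), a log2 ratio of -8.33. As this fold rests on 1 read, its interval is wide, and the lower end is the firmer figure. MiR-495 was 80.3-fold lower in K562/ADM (27.2 to 392), a log2 ratio of -6.33. It stood in the 210th place in K562. Neither interval covers reads lost because sequences seen once were omitted. The ratio of miR-494 divided by the ratio of miR-495 was 0.25 (0.00474 to 3.13, exact conditional odds ratio), so at this depth the larger fold of miR-494 was not distinguishable from that of miR-495.

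MiR-543 had 0 reads in K562/ADM and 23 in K562, and miR-1193 had 0 in K562/ADM and 21 in K562. At equal levels 18.8 and 17.1 reads of them would have been counted in K562/ADM. Against a floor of 3 reads, the number that a count of 0 still allows (0.435 RPM in K562/ADM), miR-543 was at least 6.26-fold lower in K562/ADM and miR-1193 at least 5.72-fold. These bounds take the K562 counts as exact. Neither they nor the limits that follow cover reads lost because sequences seen once were omitted. With the counting error of K562 included, the 95% limits of the ratios were 0.213 and 0.235, which allow folds down to 4.69 and 4.25. Had they fallen by as much as miR-495, 0.234 and 0.214 reads would have remained, so these libraries could not have told such folds from larger ones.

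The names with an asterisk were the scarcest. In these libraries mir-494* had 0 reads in K562/ADM and 17 in K562, and was at least 4.63-fold lower in K562/ADM against the same floor, or 3.37-fold at the 95% limit that includes the counting error of K562. Mir-495* had 0 reads in K562/ADM and 5 in K562. It was the 1 name that was not called, since the upper limit of its ratio, 1.34, lies above 1 and 4.08 reads are all that equal levels would have given. The older miRBase names use the asterisk for the less abundant arm. The table lists miR-17* (26734 reads in K562) and mir-17* (983 reads in K562) as separate names. The lower-case spelling of mir-494* and mir-495* therefore need not carry that meaning, and the sources used here do not state which bases these reads covered. In K562 the asterisk name held 4.14% of the reads of the miR-494 hairpin (17 of 411, Clopper-Pearson 95% interval 2.43 to 6.54%) and 1.67% of those of the miR-495 hairpin (5 of 300, 0.543 to 3.85%). The same share was taken over 118 other hairpins with at least 100 reads and 2 names, with the asterisk in either spelling. It had a median of 1.99% and quartiles of 0.565 and 15.1%. Both hairpins lay within these quartiles. The share could not be followed in K562/ADM, where neither asterisk name had a read.

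Levels within K562 differed widely between the 4 neighbouring hairpins. With both names of a hairpin summed, miR-494 made up 54.4% of the reads of the set, miR-495 39.7%, miR-543 3.05% and miR-1193 2.78%. MiR-494 was thus 19.6-fold more abundant (12.6 to 32) than miR-1193, whose hairpin begins 337 bases behind it. MiR-495 was 13-fold more abundant (8.53 to 20.9) than its sequence relative miR-543. MiR-494 exceeded miR-495 by 1.37-fold (1.18 to 1.6), and the levels of miR-543 and miR-1193 did not differ beyond counting error (ratio 1.1, 0.58 to 2.08). These are ratios of reads between miRs of nearly equal length, and differences in how well each sequence is ligated and amplified were not tested.

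Summed over the set there were 4 reads in K562/ADM and 755 in K562, which is a level 154-fold lower in K562/ADM (60 to 567). This was a share of 5.8e-05% of all miR reads in K562/ADM (1.58e-05 to 0.000149%) and of 0.00983% in K562 (0.00914 to 0.0106%, both Clopper-Pearson). Neither the fold nor the shares cover reads lost because sequences seen once were omitted. The median log2 ratio of the 5 names with at least 10 reads was -2.65, with the 3 names lacking K562/ADM reads placed at their bounds, beside -0.08 over all 604 such names of the table.

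**Figure D2:**
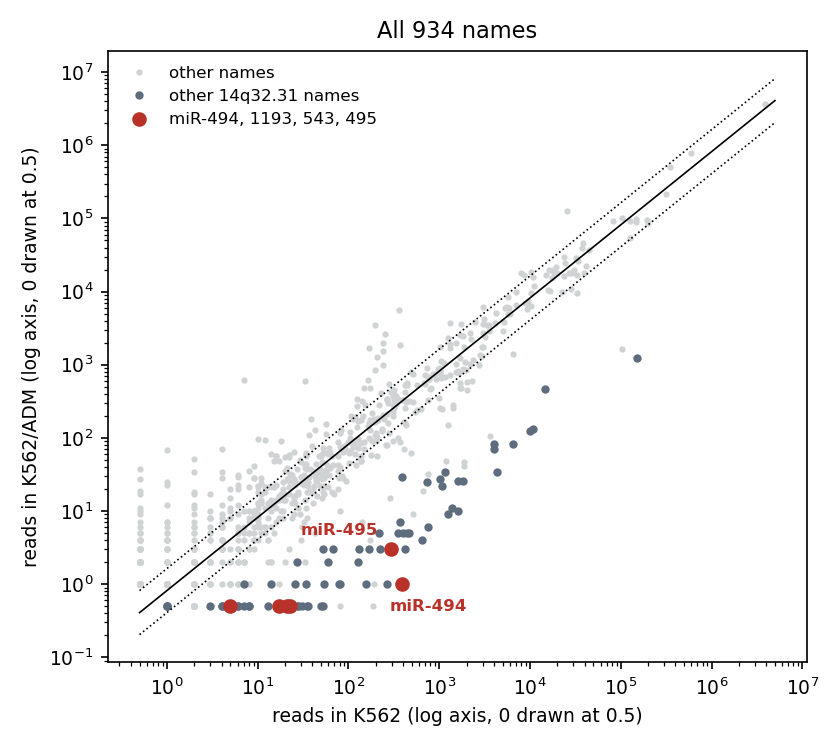
Reads of all 934 names in K562/ADM (vertical, log axis) against K562 (horizontal, log axis), with 0 drawn at 0.5, the solid line at equal levels after scaling and the dotted lines at 2-fold. The 6 names of the 4 hairpins (red) lie under the lower dotted line, and other 14q32.31 names (dark) lie around them. Mir-495*, with 0 reads in K562/ADM and 5 in K562, is drawn there at 0.5 but was not called.

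Names of like abundance from elsewhere in the genome did not show such a loss of reads. The ranges of reads used here were set with the values in view. Of 60 names outside 14q32 with 15 to 30 reads in K562, as for miR-543, miR-1193 and mir-494*, 0 were without reads in K562/ADM, where they had 1 to 91 reads (median 17.5). Of 61 names outside 14q32 with 200 to 500 reads in K562, as for miR-494 and miR-495, the lowest had 57 reads in K562/ADM, the median 287 and the highest 5530. Inside the 14q32.31 cluster, in contrast, 7 of 9 names with 15 to 30 reads in K562 had 0 in K562/ADM, the 3 names of the set included.

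The neighbours along the cluster were lower as well, and folds were set beside them through ratios of ratios, in which the scaling of the libraries cancels. The block upstream of the set was 66.3-fold lower in K562/ADM (59.9 to 73.5) with 385 reads in K562/ADM and 31239 in K562. For the miR-376 block downstream, the fold was 53.7 (47.7 to 60.7) on 278 and 18295 reads, and for the miR-381 block 93.6 (88.7 to 98.9) on 1340 and 153639 reads. That last fold is almost that of miR-381, which holds 1252 and 149839 of these reads. Without miR-381, a choice made with the values in view, the block had 88 reads in K562/ADM and 3800 in K562 and was 35.3-fold lower in K562/ADM (28.5 to 44.1). In these 3 blocks 15 of 16, 8 of 9 and 13 of 16 names were called lower.

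**Figure D3:**
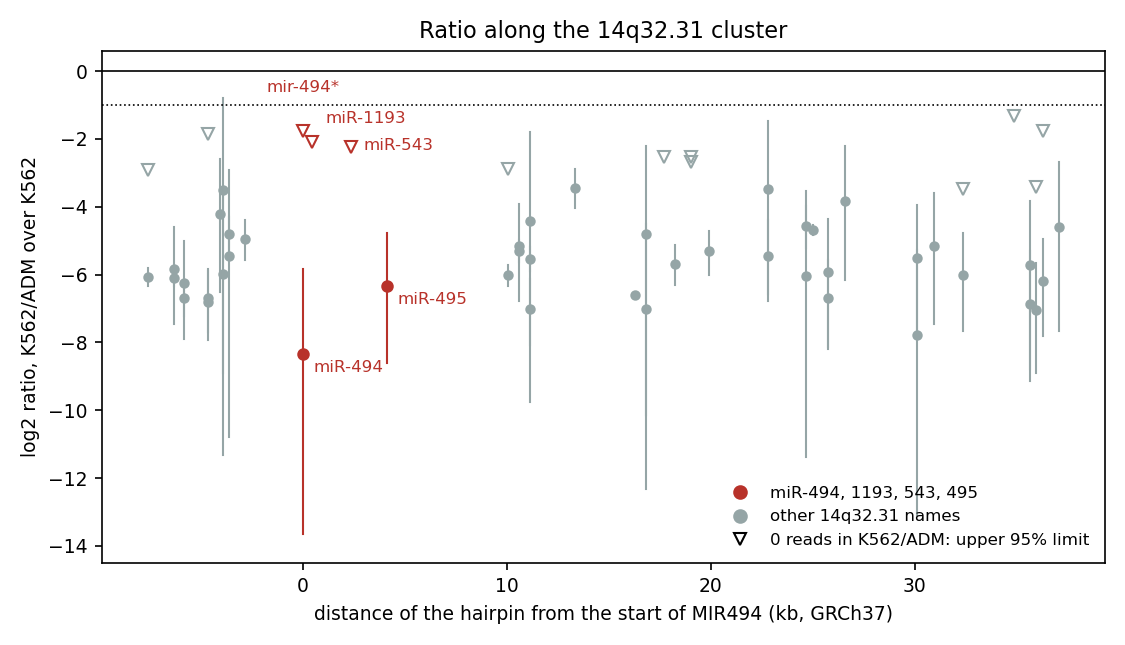
Log2 ratio of K562/ADM over K562 for 57 names of the 14q32.31 cluster with at least 10 reads, against the distance of their hairpin from the start of MIR494 in kb, with 95% intervals as lines. MiR-376b (26 reads in K562/ADM and 1837 in K562) is not drawn, as no position was found for it. Names of miR-329, miR-376a and miR-1185, which have several hairpin copies, are placed at the first copy. The dotted line is 2-fold lower, open triangles are upper 95% limits of 13 names without reads in K562/ADM, and all names drawn lie below the line of equal levels, with miR-494 at -8.33 and miR-495 at -6.33 (red).

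Of 36 ratios of ratios computed, with 95% intervals not adjusted for their number, 3 had an interval without 1. Those with miR-543, miR-1193 or mir-494*, at 0 reads in K562/ADM, could not have left out 1. Their upper limits were 11.5 or more, so they say nothing about likeness. The summed set was lower relative to the miR-376 block (ratio of ratios 0.349, 0.0941 to 0.907) and relative to its upstream neighbour miR-329 (0.2, 0.0507 to 0.578). Relative to the adjacent upstream block (0.43, 0.116 to 1.11) and to the miR-381 block (0.607, 0.165 to 1.57) the intervals held 1. Outside these 36, the set was also compared with each block without its most abundant name. Against the miR-381 block without miR-381 the interval did not hold 1 (0.229, 0.0608 to 0.61). The same was so for the miR-376 block without miR-376c (0.318, 0.0856 to 0.832). For the upstream block without miR-411 the interval held 1 (0.424, 0.114 to 1.1). MiR-329 had 27 reads in K562/ADM and 1020 in K562 and was 30.9-fold lower in K562/ADM (21.1 to 47). MiR-494 alone was lower relative to the miR-376 block (0.167, 0.0042 to 0.944), but a log-normal interval of the same comparison held 1 (0.05 to 1.25). Relative to miR-376c, the downstream neighbour with 83 reads in K562/ADM and 6583 in K562, the set gave 0.42 (0.112 to 1.12). Relative to miR-381, the other candidate regulator of MDR1 in the study, it gave 0.634 (0.172 to 1.63), on 1252 reads of miR-381 in K562/ADM and 149839 in K562. None of the 10 pairs within the set had an interval without 1. With 4 reads in K562/ADM in all, folds inside the set cannot be ranked. Omitting sequences seen once can take a larger part of these 4 reads than of the reads of a block. That would lower the ratios of ratios of the set, and its size was not tested.

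By the size of their ratios, miR-494 stood in the 1st and miR-495 in the 11th place from the lowest among 31 cluster names with at least 200 reads in K562. These places rest on 1 and 3 reads in K562/ADM, and the interval of miR-494 overlapped those of 24 of the other 30 names and that of miR-495 those of 29, so that the order is not settled. Nearness in log2 ratio was sought among the 357 names with at least 50 reads in K562, less those with 0 in K562/ADM. The latter, such as miR-370 (0 reads in K562/ADM and 187 in K562), have no log2 ratio. Over the 2 libraries, the names nearest to miR-494 were miR-154* (1 read in K562/ADM and 267 in K562), mir-370* (1 and 192 reads) and miR-369-3p (4 and 642 reads). Those nearest to miR-495 were miR-299-5p (5 and 468 reads), miR-410 (5 and 447 reads) and miR-411 (131 and 10915 reads). All 6 are names of 14q32. This follows from the size of the folds and is no separate result. Outside 14q32, the lowest ratio among names with at least 50 reads in K562 was 0.143, that of miR-92a-1*. For the low counts among the 6 names, the likeness is no closer than their intervals, such as 32.5 to 236-fold for miR-299-5p.

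MiR-425, the miR that served as PCR reference in the study, had 28536 reads in K562/ADM and 32165 in K562, a ratio of 1.09 (1.07 to 1.1). Setting it equal in both libraries moved the folds to 350-fold for miR-494 and 87.2-fold for miR-495. The upper-quartile scaling moved them most, to 192-fold and 48-fold.

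**Figure D4:**
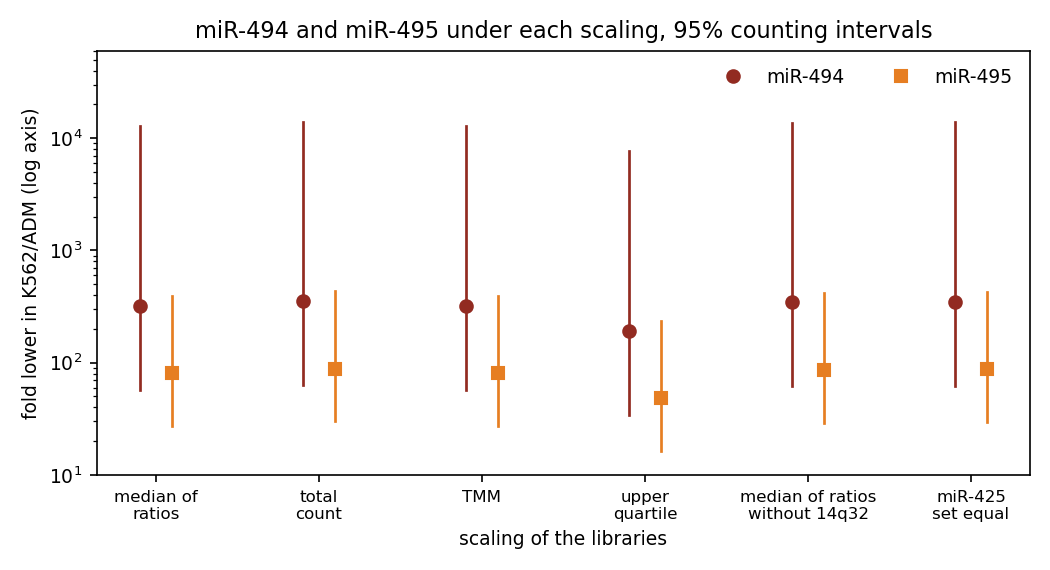
Fold by which miR-494 (dark circles) and miR-495 (orange squares) were lower in K562/ADM than in K562 (log axis) under 6 scalings of the libraries, with 95% counting intervals as lines. The folds of miR-494 lie between 192 and 354 and those of miR-495 between 48 and 88.3, less than the width of any interval.

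Because miR-495 was tested in the study against the 3'-UTR of MDR1, seed matches of all 4 guides were searched in that UTR, on the strand of the mRNA. MDR1 is now named ABCB1, and its 3'-UTR in transcript ABCB1-211 (GRCh37, chr7:87132333-87133558, minus strand) has 1226 nt. Matches to seed bases 2 to 8, which read ATGTTTC for miR-494-3p, ACCATCC for miR-1193, GAATGTT for miR-543 and GTTTGTT for miR-495-3p, occurred 0 times. In the first 600 nt of the 3'-UTRs of 13338 genes with at least this length, such matches were present in 6.55%, 4.18%, 5.95% and 8.05%, in the same order. With bases 2 to 7 alone, TGTTTC of miR-494-3p and CCATCC of miR-1193 were again absent. AATGTT of miR-543 occurred 1 time and TTTGTT of miR-495-3p 2 times. The 3 sites follow in the sense of the mRNA, with the match in capitals.
miR-495-3p, chr7:87133517-87133522: tactttttaataTTTGTTta
miR-495-3p, chr7:87133293-87133298: aaaatgtgtaatTTTGTTta
miR-543, chr7:87133218-87133223: aaaaagtattgaAATGTTtg

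The sites start at nucleotides 37, 261 and 336 of the UTR. At none of them did base 8 pair, nor was there an A opposite base 1. The T that follows each match can pair with base 1, which is an A in miR-495-3p and miR-543. Matches of this length were common, as 36.9% of the 13338 windows held that of miR-495-3p and 25.4% that of miR-543, against 25.8% for miR-494-3p and 18.1% for miR-1193. They describe letters in the UTR and do not show that a miR acts there. The study lists MDR1 as a target of miR-495 predicted by microRNA.org and by TargetScan. In the study's own experiments, a synthetic mimic of miR-495 lowered the signal of a reporter with a segment of this UTR. It also lowered MDR1 mRNA in K562/ADM cells.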

How the data were processed

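Small RNA of K562/ADM and K562, 1 library each, was prepared by the authors after PEG enrichment (Illumina v1.5 alternative protocol, Genome Analyzer IIx). They collapsed the reads, omitted sequences seen once, removed adapters and mapped to miRBase with Bowtie in miRanalyzer. The submitters' notes also list CASAVA 1.7.0, DESeq and hg18. The deposited signal is the count divided by the DESeq size factor. Reads were recovered whole within 0.001 of the value (100% of values), giving totals of 6895193 and 7677738. As this tolerance is relative, it tests small counts only. Columns of fold change, its log2, and raw and adjusted p were not used. Omitting singletons can take reads from scarce miRs.

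Intervals were exact (Clopper-Pearson, 95%), and names at 0 were bounded with 3 reads. No count model across replicates could be fitted with 1 library per line. Hairpins, sequences and UTRs came from GENCODE on GRCh37 and RefSeq tables of GRCh38.p14, and identities from Biopython 1.88 alignments. Members, lists and named miRs (neighbours, same seed, nearest sequence, nearest ratio, miR-381 and miR-425) were chosen with earlier results of these data known. Alternatives were other scalings, read minimums, call rules, an added value of 1, summed hairpins, other denominators and a log-normal interval. The functions were run on simulated libraries of independent Poisson counts, the setting that the intervals assume. This does not test variation between cultures or the omission of singletons. Software was edgeR 4.0.16 (factors only) in R 4.3.3, and scipy 1.17.1, matplotlib 3.10.9, pandas 2.3.3 and numpy 2.4.6 in Python 3.11.15.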

Additional observations from a re-analysis of the deposited data

How the results depend on the processing

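Under the alternatives 62 values stayed within their counting interval, within 1.5 times the count or on their side of the call, and the other 10 follow. Over 5 other scalings, 5 of the 6 names were called lower in every case, with folds of miR-494 from 192 to 354, of miR-495 from 48 to 88.3, and bounds for miR-543 from 3.74 to 6.89 and for miR-1193 from 3.42 to 6.29. With at least 50 reads, 2 of the names were left to be called. The bound of mir-495* was 0.813-fold under the upper-quartile scaling, and its hairpin summed was 81.7-fold lower. The share of the set in K562 was 0.0199% when miR-378, the most abundant miR, was left out of the total. Over all names, the upper-quartile scaling gave 95 lower and 223 higher in place of 146 and 104, calls by fold alone 275 and 236, a minimum of 50 reads 62 higher, and whole intervals past 2-fold 61 higher. Upper-quartile scaling shifted every log2 ratio by 0.74, the others by 0.14 or less. No paired analysis was possible because each line has 1 library, for which reason no library could be left out either. The depth limits the set most in K562/ADM, where a fold of 0 reads cannot be told beyond the bound. Variation between cultures was not measured in these libraries.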

Other observations

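The oligos of the study bear on how well miR-495 and miR-543 can be told apart by PCR. The 6 bases at the 3' end of the stem-loop primer for miR-495 pair with the ends of 3 human mature miRs, namely miR-495-3p, miR-543 and miR-4308. Its forward primer holds 16 bases of miR-495-3p, and 4 of them differ from miR-543. The stem-loop primer for miR-494 pairs through its last 6 bases with miR-494-3p alone. The mimic for miR-495 was the RefSeq sequence of miR-495-3p. Amplification of miR-543 by these primers was not tested here, and in K562 the library held 23 reads of miR-543 beside 295 of miR-495.

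Reads of 1 were present in the table although sequences seen once had been omitted. MiR-494 in K562/ADM was such a value.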
